A study of Mus musculus with 16 samples.

Results

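Hba-a1 and Hba-a2 encode the alpha chain of adult mouse hemoglobin, Hbb-bs and Hbb-bt encode its beta chain, and Alas2 encodes the erythroid form of 5-aminolevulinate synthase, the enzyme that starts heme synthesis in red cell precursors. These 5 genes were taken by symbol from a table of 33289 genes measured in perfused mouse brain, and all 5 had a row in it. Bulk RNA was sequenced from hemi-brains of C57BL/6J mice, 3 to 4 months old and perfused with PBS, 8 h after an injection of saline or of lipopolysaccharide (LPS), the bacterial outer membrane component that sets off acute inflammation. The 4 groups, of 4 libraries each, were wild type after saline, wild type after LPS, and mice labelled Lcn2-/- after saline and after LPS; the label stands for loss of lipocalin-2, a secreted protein that binds siderophores and takes part in iron handling. The labels give neither the dose and route of injection nor the allele behind the genotype. By its title the series concerns what lipocalin-2 does in the brain during inflammation.

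Hemoglobin carries oxygen as a tetramer of paired alpha and beta chains, each holding a heme group. Its messenger RNA is made in erythroid precursors and persists in reticulocytes, and blood left in vessels is a usual source of globin reads in whole tissue, although globin transcripts have also been described in neurons and other brain cells. Perfusion with buffer flushes blood from the vessels, so erythroid transcripts are often read as a sign of how much blood remains. In bulk tissue, fewer cells of a type and less RNA per cell cannot be told apart.

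The alpha genes lie together on chromosome 11 and the beta genes on chromosome 7, and each pair is nearly the same sequence, which bears on how far the members can be told apart by reads. On GRCm38, Hba-a1 (ENSMUSG00000069919) spans chromosome 11 from 32283511 to 32284465 and Hba-a2 (ENSMUSG00000069917) from 32296489 to 32297298, both on the plus strand. Hbb-bt (ENSMUSG00000073940) spans chromosome 7 from 103812524 to 103813996 and Hbb-bs (ENSMUSG00000052305) from 103826534 to 103828096, both on the minus strand. Alas2 (ENSMUSG00000025270) spans chromosome X from 150547375 to 150570638 on the plus strand and has 11 exons, while each globin gene has 3. The coding sequences of Hba-a1 and Hba-a2 differed at 1 of 429 bases, and those of Hbb-bs and Hbb-bt at 1 of 444. Below is the stretch of each coding sequence that holds the difference, bases 351 to 411 for the alpha genes and 384 to 444 for the beta genes, from GENCODE vM21, with the differing base in capitals.
Hba-a1: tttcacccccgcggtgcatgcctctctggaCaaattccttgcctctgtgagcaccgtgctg
Hba-a2: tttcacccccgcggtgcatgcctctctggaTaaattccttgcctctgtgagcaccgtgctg
Hbb-bs: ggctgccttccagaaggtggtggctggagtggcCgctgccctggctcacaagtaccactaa
Hbb-bt: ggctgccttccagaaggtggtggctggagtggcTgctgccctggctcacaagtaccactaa
Of all 50-base stretches of the coding sequence, 87.1% were shared between Hba-a1 and Hba-a2 and 92.9% between Hbb-bs and Hbb-bt, while an alpha and a beta gene (Hba-a1 and Hbb-bs) shared 0%. Over the whole transcript, 67.5% of the stretches of Hba-a1 were in Hba-a2 and 65.8% of those of Hbb-bs were in Hbb-bt. Neither the read length nor the treatment of reads matching both copies is known from the labels, so the level of a single copy, and the level of both copies if such reads were dropped, are uncertain.

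The promoters of the members were compared because the genes varied together between libraries, as described further on. The 150 bases before each RefSeq start site (GRCm38.p6) are printed on the gene's strand, with capitals marking matches, on either strand, to the GATA core GATAA, the CACCC box CACCC, the CCAAT box CCAAT and the TATA-like ATATAA. These letters and the length of the window were chosen after the sequences had been seen, and Hba-a2 is left out because its promoter shared a run of 147 bases with that of Hba-a1. The RefSeq starts differ from the gene spans given above, which are from GENCODE vM21. By those spans the Hba-a1 and Hbb-bs windows lie inside the genes, and the Hbb-bt and Alas2 windows overlap them in part.
Hba-a1 (chr11:32283522-32283671, plus strand): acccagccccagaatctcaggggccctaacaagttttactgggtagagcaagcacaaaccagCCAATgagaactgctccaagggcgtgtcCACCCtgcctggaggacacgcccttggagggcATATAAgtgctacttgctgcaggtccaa
Hbb-bs (chr7:103827929-103828078, minus strand): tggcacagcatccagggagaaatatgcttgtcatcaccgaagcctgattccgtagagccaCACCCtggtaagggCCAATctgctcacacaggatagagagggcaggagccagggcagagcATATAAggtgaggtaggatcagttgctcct
Hbb-bt (chr7:103813924-103814073, minus strand): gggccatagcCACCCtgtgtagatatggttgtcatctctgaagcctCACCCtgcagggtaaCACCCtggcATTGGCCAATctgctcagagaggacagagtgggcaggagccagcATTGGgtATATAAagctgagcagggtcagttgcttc
Alas2 (chrX:150547267-150547416, plus strand): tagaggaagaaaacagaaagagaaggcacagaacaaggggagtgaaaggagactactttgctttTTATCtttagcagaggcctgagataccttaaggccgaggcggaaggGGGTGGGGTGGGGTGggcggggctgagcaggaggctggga
All 4 globin promoters held CCAAT, found in 24.5% of 32851 promoter windows of the same length, and ATATAA, found in 5.35%. CACCC was in all 5 windows and in 37.4% of all promoters. GATAA was in the Alas2 window alone among the members and in 13.3% of all promoters; its absence from the globin windows says only that those letters are not in these bases. In Hbb-bt, adjoining CCAAT matches on opposite strands form 1 run of capitals. These matches describe letters and not binding.

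The table holds no counts: sequencing depth is unknown, and no interval for counting error is given. Nothing in the labels ties libraries to separate animals, and p-values then reflect only the spread among these libraries, which may be technical. The tissue matched its label: all 10 neuron, 10 astrocyte, 10 oligodendrocyte and 10 microglia markers passed the filter on low values, and the neuron markers summed to 1085 to 1155 RPKM in the libraries. Lcn2, the gene named by the label, lay between 0.0650 and 0.351 RPKM in the 8 saline libraries. After LPS it was 66.7 to 82.7 RPKM in wild type, against 34.1 to 40.2 RPKM under the Lcn2-/- label. The transcript was therefore not absent under the label, and a value for the whole gene cannot show whether the reads fell outside a deleted part, so the phrase "labelled Lcn2-/-" is kept throughout. Saline replicate 4 labelled Lcn2-/- stood apart: 17112 genes reached 0.5 RPKM in it against 16372 to 16497 in the other libraries, and its array weight (limma's estimate of relative precision) was 0.0914 against 0.74 to 1.85. Results that rest on it are given with and without it.

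All members were low in the deposited values. Summed over the 4 globin genes, RPKM lay between 3.56 and 11.5 in the 16 libraries, which is 0.00159% to 0.00514% of the RPKM summed over all genes. By group the sum was 4.75 to 11.5 in wild type saline, 4.12 to 7.31 in saline labelled Lcn2-/-, 3.56 to 5.225 in wild type LPS and 5.44 to 8.42 in LPS labelled Lcn2-/-. The LPS groups did not overlap, as was the case for 28% of the single genes that passed the filter on low values. In a library, 49.0% to 74.8% of all genes in the table lay below any 1 of the globin genes, and 12.1% to 45.8% lay below Alas2. The 12.1% was in saline replicate 4 labelled Lcn2-/-, the library that stood apart. Without that library, the share below Alas2 was 36.1% to 45.8%. RPKM is per length of transcript, but the unknown treatment of reads shared by near copies leaves the order of the globin genes uncertain. In the deposited values, Hbb-bs was the highest member and Alas2 the lowest in 16 of 16 libraries. As a description with no test, the geometric mean over the libraries was 2.30 RPKM for Hbb-bs, 1.32 for Hbb-bt, 1.28 for Hba-a2, 1.02 for Hba-a1 and 0.162 for Alas2. Hbb-bs exceeded Hbb-bt in 16 of 16 libraries. In that order the neighbours Hbb-bt and Hba-a2, and Hba-a2 and Hba-a1, differed by less than the spread between libraries, although Hba-a2 exceeded Hba-a1 in 14 of 16. Alas2 did not pass the filter on low values (a log2 RPKM of -1, or 0.5 RPKM, in 3 libraries), so 4 of the 5 members were tested among 17349 genes, and Alas2 is given from the fit without the filter. That fit includes the low end of the table, which differed by injection. The lower quartile of log2 RPKM was -4.119 to -2.725 in the saline libraries and -5.785 to -4.579 in the LPS libraries. The part of this difference in the Alas2 estimates was not tested.

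The alpha gene Hba-a1 was 0.755, 0.978, 2.09 and 1.89 RPKM in wild type saline replicates 1 to 4. It was 0.745, 1.25, 1.31 and 0.824 RPKM in saline libraries labelled Lcn2-/-. After LPS it was 0.418, 0.626, 1.03 and 0.645 RPKM in wild type, against 1.21, 1.29, 1.197 and 1.37 RPKM under the Lcn2-/- label. Wild type LPS libraries were the lowest as a group but overlapped both saline groups, and the 4 LPS libraries labelled Lcn2-/- lay close together, all above every wild type LPS library. Its neighbour Hba-a2, from the same cluster, was 1.27, 1.43, 2.25 and 2.26 RPKM in wild type saline, against 1.15, 1.58, 1.72 and 0.553 RPKM in saline libraries labelled Lcn2-/-. After LPS the values of Hba-a2 were 0.925, 0.880, 1.18 and 0.828 RPKM in wild type, against 0.921, 1.58, 1.48 and 1.91 RPKM under the Lcn2-/- label. Wild type saline replicates 3 and 4 were high in both alpha genes, and for Hba-a2 every wild type LPS library was below every wild type saline library. Over all genes tested, 32.4% did not overlap for LPS in wild type and 28% between the labels after LPS.

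The beta gene Hbb-bs was 1.51, 1.76, 4.33 and 4.68 RPKM in wild type saline, against 1.98, 1.91, 2.82 and 2.08 RPKM in saline libraries labelled Lcn2-/-. After LPS it was 1.76, 1.86, 1.97 and 1.42 RPKM in wild type, against 2.33, 3.03, 2.70 and 3.00 RPKM under the Lcn2-/- label. The LPS groups did not overlap, while wild type saline overlapped both of them, with replicates 3 and 4 the highest of all 16 libraries. The other beta gene, Hbb-bt, was 1.21, 1.196, 2.30 and 2.71 RPKM in wild type saline, against 1.73, 1.66, 1.46 and 0.662 RPKM in saline libraries labelled Lcn2-/-. After LPS the values of Hbb-bt were 0.459, 1.03, 1.04 and 1.09 RPKM in wild type, against 0.985, 1.87, 1.66 and 2.15 RPKM under the Lcn2-/- label. In wild type the saline and LPS values of Hbb-bt did not overlap, and wild type LPS replicate 1 was the lowest of the 16 libraries. These 2 cases of groups that did not overlap stand beside 28% of all genes tested for the label after LPS and 32.4% for LPS in wild type.

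Alas2 was 0.153, 0.139, 0.200 and 0.300 RPKM in wild type saline, against 0.174, 0.237, 0.164 and 0.0910 RPKM in saline libraries labelled Lcn2-/-. After LPS it was 0.162, 0.147, 0.123 and 0.103 RPKM in wild type, against 0.105, 0.166, 0.226 and 0.240 RPKM under the Lcn2-/- label. All 4 groups of Alas2 overlapped. Spread within the groups was 52.5% of the variance of log2 RPKM over the 16 libraries for Hba-a1, 62.8% for Hba-a2, 69.0% for Hbb-bs, 62.9% for Hbb-bt and 82.4% for Alas2. From the lowest to the highest library the levels ranged over 5.01-fold for Hba-a1, 4.08-fold for Hba-a2, 3.30-fold for Hbb-bs, 5.91-fold for Hbb-bt and 3.30-fold for Alas2.

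**Figure D1:**
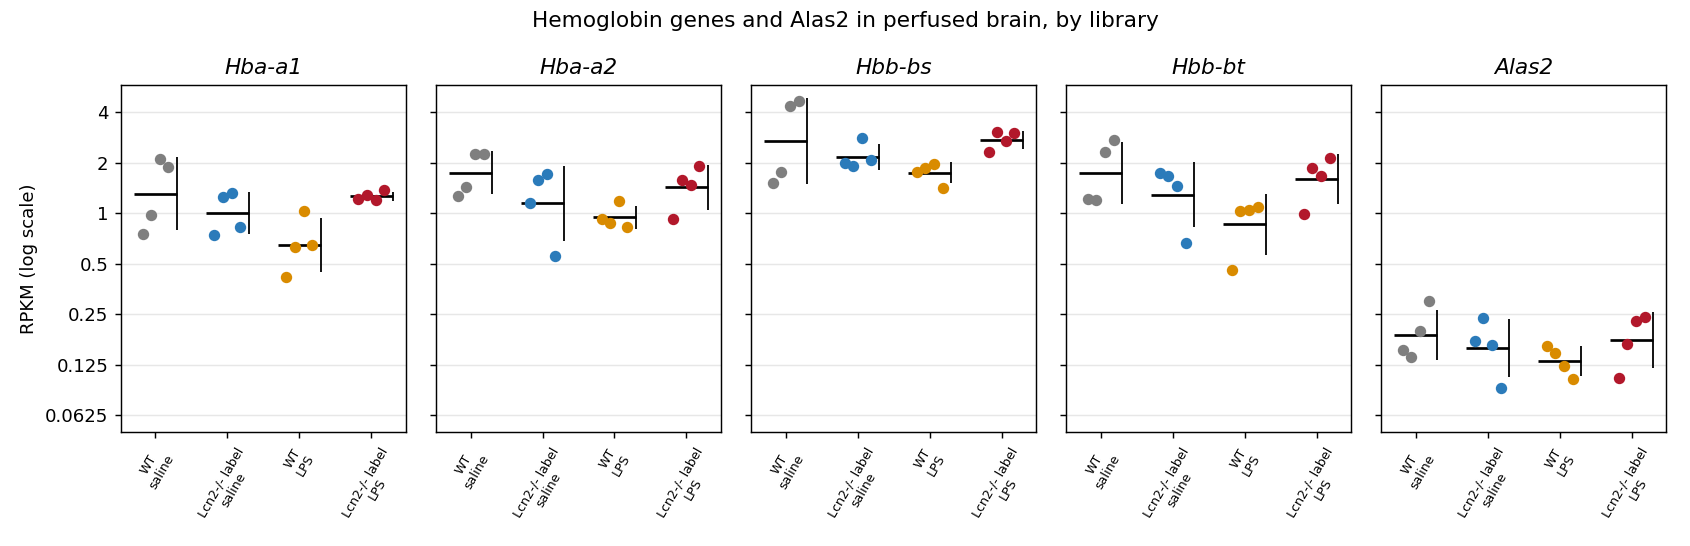
RPKM (log scale) of the 5 genes in each of 16 libraries, 4 per group; horizontal lines are means of log2 RPKM and vertical bars 1 SD on the log2 scale. Alas2 lies between 0.0910 and 0.300 RPKM and the globin genes between 0.418 and 4.68 RPKM, and the wild type LPS group has the lowest mean for each gene.

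In wild type mice, 1 of the 4 tested members, Hba-a1, fell after LPS, and the estimates of the other 3 were also below 0 without passing the test. The mean log2 RPKM of Hba-a1 was 0.39 ± 0.72 (SD, n = 4) after saline and -0.63 ± 0.53 after LPS, a log2 change of -1.02 ± 0.31 (SE; 0.494-fold; limma, adjusted p = 0.0254). Of all 17349 genes tested, 25.3% were called in this comparison and 13.9% were called as lower, so 1 of 4 is near the background. The estimates of the other members did not pass: -0.89 ± 0.32 for Hba-a2 (adjusted p = 0.0509), -0.64 ± 0.29 for Hbb-bs (adjusted p = 0.127) and -1.02 ± 0.37 for Hbb-bt (adjusted p = 0.058). The estimate for Alas2 was -0.52 ± 0.35 (adjusted p = 0.247, without the filter). The median log2 change of the 4 tested members was -0.95, beside -0.02 over all genes tested. The groups did not overlap for Hba-a2 and Hbb-bt, which was the case for 32.4% of all genes tested. Called genes that were higher made up 11.4% of all genes tested, with no member among them.

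This Hba-a1 call depended on single libraries. It was lost without wild type saline replicate 3 (log2 change -0.79, adjusted p = 0.0937) or replicate 4 (-0.84, adjusted p = 0.0865), and without wild type LPS replicate 1 (-0.81, adjusted p = 0.0878), 2 (-1.004, adjusted p = 0.0562) or 4 (-1.02, adjusted p = 0.0535). No member was called in any of those 5 fits. By contrast, 4 members were called without wild type saline replicate 1, 3 without saline replicate 4 labelled Lcn2-/-, and 2 without wild type saline replicate 2, without saline replicate 2 or 3 labelled Lcn2-/-, or without LPS replicate 1 labelled Lcn2-/-. With only the contrast's own groups in the fit the adjusted p of Hba-a1 was 0.0511 while 2 other members, Hba-a2 (adjusted p = 0.00717) and Hbb-bt (adjusted p = 0.0443), were called.

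In the libraries labelled Lcn2-/-, no member was called after LPS, where 48.3% of all genes tested were called by limma (20.7% higher and 27.7% lower; 9577 at an unadjusted p under 0.05). The log2 estimates were 0.33 ± 0.31 for Hba-a1 (adjusted p = 0.394), 0.31 ± 0.32 for Hba-a2 (adjusted p = 0.43), 0.34 ± 0.29 for Hbb-bs (adjusted p = 0.353) and 0.31 ± 0.37 for Hbb-bt (adjusted p = 0.509). Alas2 had an estimate of 0.15 ± 0.35 (adjusted p = 0.721, without the filter). The 4 tested members had a median of 0.32, beside -0.03 over all genes tested. Saline and LPS values overlapped for every member, whereas they did not for 42.4% of all genes tested. Without saline replicate 4 labelled Lcn2-/-, the library that stood apart, the estimates were 0.24 for Hba-a1, -0.04 for Hba-a2, 0.32 for Hbb-bs and -0.01 for Hbb-bt, with adjusted p between 0.429 and 0.988.

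After saline, no member differed between the genotype labels beyond the spread. The log2 estimates, labelled Lcn2-/- minus wild type, were -0.38 ± 0.31 for Hba-a1 (adjusted p = 0.628), -0.61 ± 0.32 for Hba-a2 (adjusted p = 0.488), -0.32 ± 0.29 for Hbb-bs (adjusted p = 0.666) and -0.43 ± 0.37 for Hbb-bt (adjusted p = 0.649). The estimate for Alas2 was -0.26 ± 0.35 (adjusted p = 0.927, without the filter). Of all genes tested, 0.0461% were called by limma (0.0346% higher and 0.0115% lower; 1897 at an unadjusted p under 0.05), and the groups did not overlap for 5.19%, with no member among them. Without saline replicate 4 labelled Lcn2-/- the estimates of the 4 tested members lay between -0.30 and -0.11.

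After LPS, Hba-a1 was higher in libraries labelled Lcn2-/- than in wild type; the estimates of the other 3 tested members were above 0 and did not pass the test. The mean log2 RPKM of Hba-a1 was 0.34 ± 0.09 (SD, n = 4) in libraries labelled Lcn2-/- and -0.63 ± 0.53 in wild type, a difference of 0.97 ± 0.31 (SE; 1.96-fold; limma, adjusted p = 0.0476). Of all genes tested 15.8% were called in this comparison and 7.04% were called as higher, 8.74% as lower. The other estimates were 0.59 ± 0.32 for Hba-a2 (adjusted p = 0.217), 0.66 ± 0.29 for Hbb-bs (adjusted p = 0.137) and 0.90 ± 0.37 for Hbb-bt (adjusted p = 0.113). For Alas2 the estimate was 0.41 ± 0.35 (adjusted p = 0.517, without the filter). The groups did not overlap for Hba-a1 and Hbb-bs, as for 28% of all genes tested. The median of the 4 members was 0.78, beside -0.01 over all genes tested.

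This call too was near the threshold. It was lost in 11 of the 16 fits that left out 1 library: each of the 4 LPS libraries labelled Lcn2-/-, wild type LPS replicates 1, 2 and 4, wild type saline replicate 2, and saline replicates 1, 2 and 3 labelled Lcn2-/-, with log2 differences between 0.76 and 0.99 and adjusted p between 0.0505 and 0.144, and in those fits 0 members were called. Without saline replicate 4 labelled Lcn2-/- the adjusted p of Hba-a1 was 0.029, and 2 members were called. On the log2(RPKM + 0.5) scale (adjusted p = 0.061) and without the filter on low values (adjusted p = 0.0661) it was also lost.

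The LPS effect in libraries labelled Lcn2-/- minus that in wild type did not pass the test for any member, where limma called 8.82% of all genes tested (3.9% higher and 4.92% lower; 4938 at an unadjusted p under 0.05). The interaction estimates were 1.35 ± 0.44 on the log2 scale for Hba-a1 (adjusted p = 0.0664), 1.20 ± 0.45 for Hba-a2 (adjusted p = 0.0986), 0.98 ± 0.41 for Hbb-bs (adjusted p = 0.137) and 1.33 ± 0.53 for Hbb-bt (adjusted p = 0.117). For Alas2 the estimate was 0.68 ± 0.49 (adjusted p = 0.555, without the filter). So a difference in LPS effect between the genotype labels was not shown for these genes at this sample size. Leaving out wild type saline replicate 1 gave 2 called members and leaving out wild type LPS replicate 3 gave 1.

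**Figure D2:**
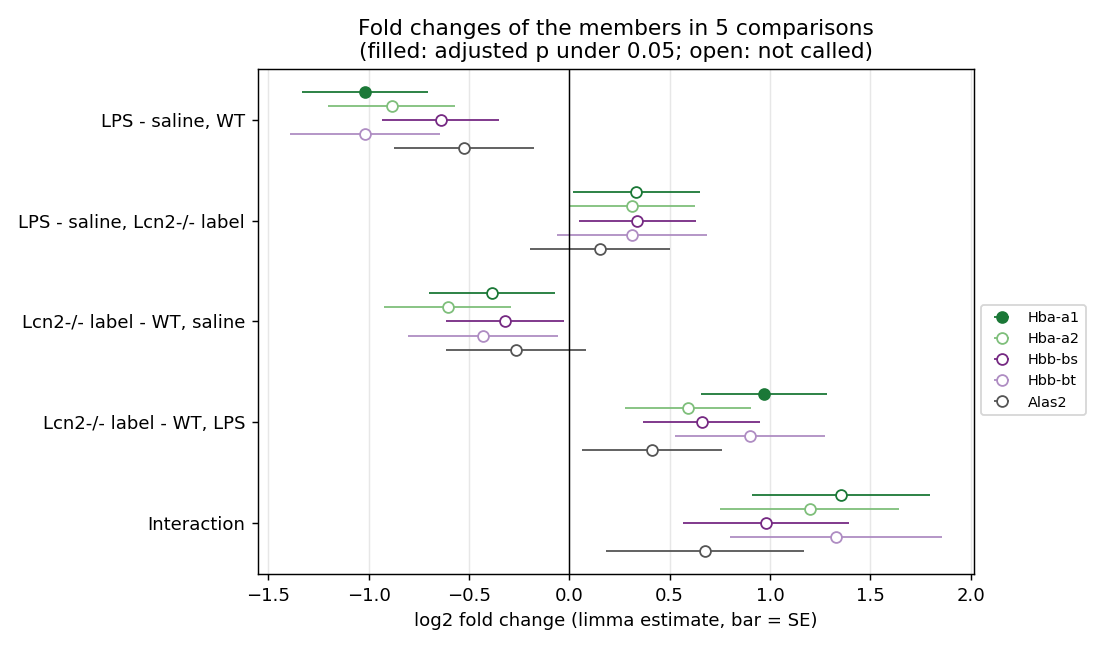
Estimated log2 fold changes (points) with SE (bars) of the 5 genes in the 5 comparisons; filled points are called at an adjusted p under 0.05, and Alas2 comes from the fit without the filter on low values. The filled points are Hba-a1 for LPS in wild type (-1.02) and for the genotype label after LPS (0.97).

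The mean of the alpha genes was below the mean of the beta genes in every library, by a log2 ratio between -1.003 and -0.29, and beta genes made up 55.1% to 66.6% of the summed globin RPKM. The treatment of reads matching both copies is unknown, so this level of the ratio describes the deposited values only. The log2 ratio of Hba to Hbb was -0.52 ± 0.21 (SD, n = 4) in wild type saline, -0.64 ± 0.31 in saline labelled Lcn2-/-, -0.65 ± 0.23 in wild type LPS and -0.65 ± 0.09 in LPS labelled Lcn2-/-. None of 8 tests of the ratios of Hba to Hbb, Hba-a1 to Hba-a2, Hbb-bs to Hbb-bt and Alas2 to the globin mean, each against LPS and against the genotype label, passed: the smallest unadjusted p was 0.174, for Hba-a1 to Hba-a2 between the labels, and the adjusted p was 0.807 for all (two-sided exact permutation test within strata, smallest possible p 0.000408). The largest differences of the 8, each a mean over 2 strata, were 0.30 on the log2 scale for that ratio and 0.20 for Hbb-bs to Hbb-bt after LPS. Differences of opposite sign cancel in such a mean. For Alas2 to the globin mean, the LPS difference was 0.37 in wild type and -0.17 under the Lcn2-/- label. The label difference of that ratio was 0.17 after saline and -0.37 after LPS. Single strata were not tested. A ratio that missed the threshold is not shown to be equal.

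Between libraries of one group, the members rose and fell together. The Pearson r of deviations from group means over 16 libraries was above 0 for all 10 pairs, from 0.35 for Hba-a1 and Alas2 to 0.81 for Hba-a2 and Alas2. Of the 10 pairs, 8 had an adjusted permutation p of r under 0.05 and 7 an adjusted p of Spearman's rho under 0.05 (100000 permutations). The deviations were treated as independent although group means were removed. The share of other gene pairs that would pass was not computed, so the counts do not show co-variation particular to these genes. Of 17345 other genes, 2851 had a slope on the mean of the 4 globin genes with an unadjusted p under 0.05 (limma, described further on). Across families, Hba-a1 and Hbb-bs had r = 0.77 and rho = 0.73 (permutation p = 0.00051 and 0.0016, adjusted 0.0017 and 0.0084), and r was 0.61 without the 2 libraries farthest from the median. Hba-a2 and Alas2, which share no sequence family, had r = 0.81 and rho = 0.72 (permutation p = 0.00013 and 0.00252, adjusted 0.0013 and 0.0084), and r was 0.63 without the 2 farthest. Both genes were lowest in saline replicate 4 labelled Lcn2-/-, at 0.553 and 0.0910 RPKM, and r without that library alone is not given. When 1 library was left out, 6 to 9 of the 10 pairs had an adjusted permutation p of r under 0.05. Within the pairs of near copies, r was 0.65 for Hba-a1 and Hba-a2 and 0.54 for Hbb-bs and Hbb-bt. The pairs that missed on r were Hba-a1 with Alas2 (adjusted permutation p = 0.189) and Hbb-bs with Alas2 (adjusted permutation p = 0.0545). As a description without a test, r lay between 0.52 and 0.93 over the 10 pairs in the 8 saline libraries and between -0.19 and 0.80 in the 8 LPS libraries. Each injection had r above 0 for all 6 pairs of globin genes, from 0.56 to 0.89 after saline and from 0.33 to 0.80 after LPS.

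**Figure D3:**
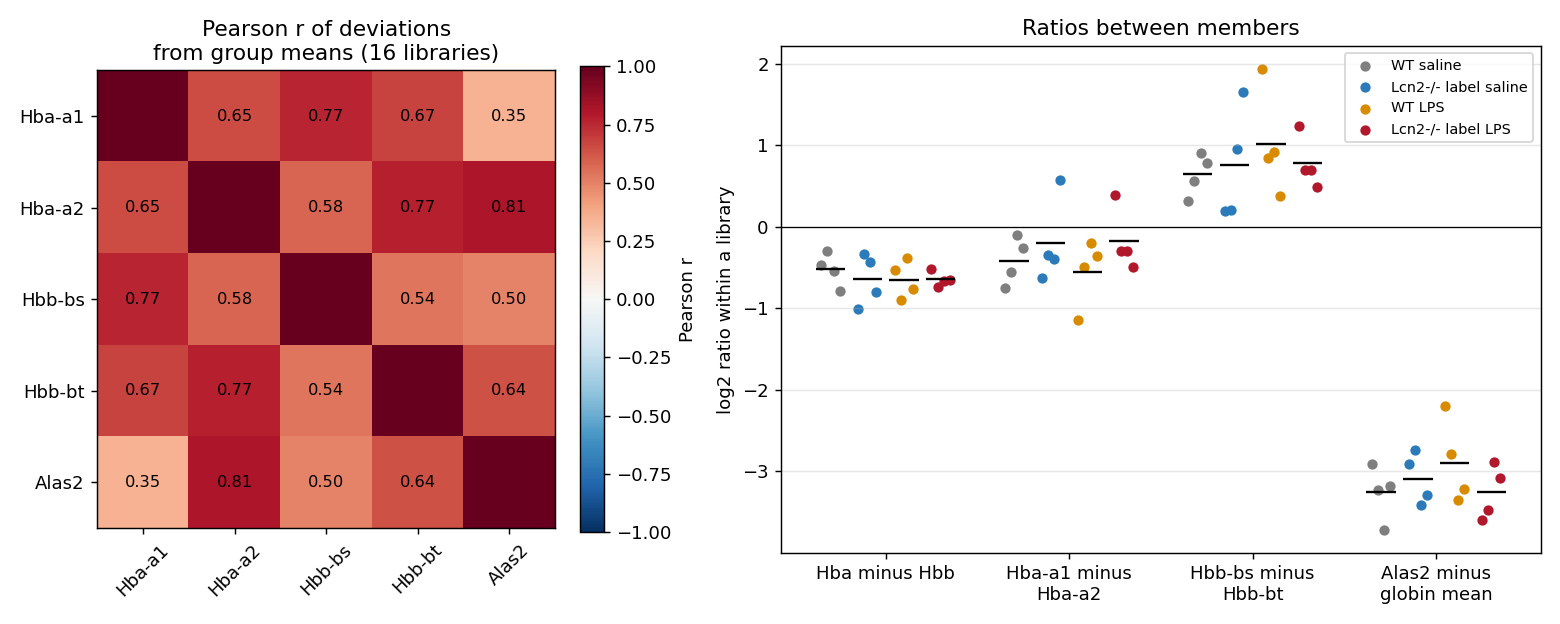
Left, Pearson r of deviations from group means for each pair of members over 16 libraries; right, log2 ratios between members in each library by group, with group means as lines. All 10 values of r are above 0, from 0.35 to 0.81, and the alpha to beta ratio is below 0 in every library.

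The mean log2 RPKM of the 4 globin genes in a library, called the globin level here, had a mean of 0.86 ± 0.65 (SD, n = 4) in wild type saline, 0.42 ± 0.43 in saline labelled Lcn2-/-, -0.03 ± 0.31 in wild type LPS and 0.75 ± 0.29 in LPS labelled Lcn2-/-. When it was added to the model, its slope was called for 0 of 17345 other genes (0% called; limma, smallest adjusted p 0.0952), and 2851 had an unadjusted p under 0.05. Alas2 had a slope of 0.74 ± 0.27 per log2 unit of globin level (unadjusted p = 0.0153, adjusted p = 0.319, without the filter). By deviations from group means, the genes most like the globin level over 16 libraries were Chtf18 (r = 0.94), Ndufa13 (0.89), Wdyhv1 (0.89), Polr3b (0.89) and Fis1 (0.88), picked from the whole table and given with no test. Over the 16 libraries without removing group means they were Ndufa13 (r = 0.90), Nr1i3 (0.89), Tomm40l (0.88), Fnta (0.88) and Stk16 (0.87). The smallest adjusted p of the slope belonged to Chtf18 (slope 0.25), Ptprn2 (-0.29), Syt16 (-0.22), Ndufa13 (0.14) and Gnb5 (-0.18), between 0.0952 and 0.105. Leaving out wild type LPS replicate 4 or LPS replicate 1 labelled Lcn2-/- gave 1 called gene, and leaving out LPS replicate 4 labelled Lcn2-/- gave 4.

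The globin level also moved with a difference by transcript length among genes at large. For each library, the mean log2 RPKM of 763 genes with transcripts under 1000 bases minus that of 3238 genes over 4000 bases (all with a mean log2 RPKM of at least 2) gave a short-minus-long level, a measure chosen after seeing the data. Deviations of the globin level and of this measure from group means had r = 0.81 and rho = 0.72 over 16 libraries (permutation p = 0.00015 and 0.0022, adjusted over 6 relations 0.0009 and 0.0132), and r was 0.67 without the 2 libraries farthest from the median of the globin level. By injection, r was 0.99 in the 8 saline libraries and -0.11 in the 8 LPS libraries, so the relation was not seen after LPS. The difference between injections was not tested, and this measure varied more within the saline groups (SD 0.0377) than within the LPS groups (SD 0.0122). So narrow a range after LPS cannot show that the relation was absent there. Wild type saline replicates 3 and 4 were highest in both measures, with short-minus-long levels of 0.77 and 0.77, and saline replicate 4 labelled Lcn2-/- was lowest in the short-minus-long level at 0.65. Across genes, the slope on the globin level was above 0 for 59.9% of genes of 1 to 2 kb, 54.1% of those of 2 to 4 kb, 45.8% of those of 4 to 8 kb and 30.9% of those over 8 kb, a share that fell with length, while genes under 1 kb were at 51.4%. The part of this measure in the differences between groups of globin genes was not tested; with it as a covariate, the log2 estimates for LPS in wild type were nearer 0, at -0.71 ± 0.25 for Hba-a1 (adjusted p = 0.0488), -0.58 ± 0.25 for Hba-a2 (adjusted p = 0.11), -0.34 ± 0.22 for Hbb-bs (adjusted p = 0.294) and -0.66 ± 0.30 for Hbb-bt (adjusted p = 0.128). For the genotype label after LPS they were farther from 0, at 1.19 ± 0.24 for Hba-a1 (adjusted p = 0.00387), 0.81 ± 0.25 for Hba-a2 (adjusted p = 0.0293), 0.88 ± 0.22 for Hbb-bs (adjusted p = 0.0106) and 1.16 ± 0.29 for Hbb-bt (adjusted p = 0.0117), so that all 4 were called. The covariate had 1 slope per gene for all 16 libraries, while the relation was not seen in the LPS libraries that this comparison uses. Whether that slope holds in the LPS libraries was not tested. These 4 calls are therefore not read as stronger evidence than the fit without the covariate.

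**Figure D4:**
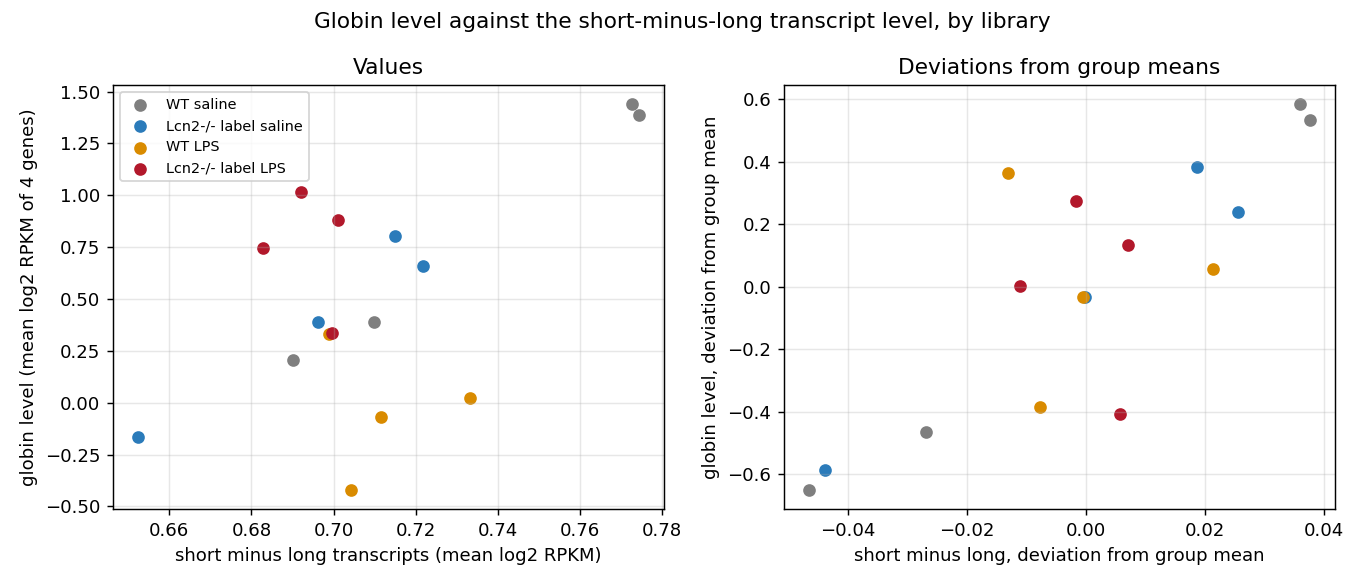
Globin level (mean log2 RPKM of 4 genes) against the short-minus-long transcript level (difference of mean log2 RPKM) in each library, as values (left) and as deviations from group means (right). On the right, the saline libraries follow a line (r = 0.99) and the LPS libraries do not (r = -0.11).

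Most other red cell genes lay under the filter. The list held 30 red cell membrane, chaperone and transcription genes chosen by known function, of which 29 were in the table, 13 passed the filter and 16 were below 0.5 RPKM in every library. Among the defining red cell markers, Slc4a1 (band 3, the anion exchanger) lay between 0.0210 and 0.0983 RPKM, Gata1 (the erythroid transcription factor) between 0.00159 and 0.0612 and Klf1 between 0.0294 and 0.160. The summed RPKM of the list lay between 149.8 and 163.6 in the 16 libraries and came largely from genes with wide expression outside blood, such as Dmtn (34.4 to 44.6 RPKM). In wild type 4 of 13 fell and 0 rose after LPS, where 13.9% of all genes tested were called as lower and 11.4% as higher, among them Bnip3l, a mitophagy receptor (log2 change -0.16 ± 0.03, adjusted p = 0.000553), Dmtn, a red cell skeleton protein (-0.15 ± 0.04, adjusted p = 0.0185) and Bpgm, which makes 2,3-bisphosphoglycerate (-0.14 ± 0.04, adjusted p = 0.0187). The call of Dmtn was lost without wild type saline replicate 2 or wild type LPS replicate 2 or 4, and that of Bpgm without wild type saline replicate 3 or 4 or wild type LPS replicate 1 or 3. In libraries labelled Lcn2-/-, 2 of 13 rose and 2 fell, beside 20.7% and 27.7% of all genes tested: Gypc (glycophorin C) rose by 1.03 ± 0.17 (adjusted p = 0.000147) and Epb41 (protein 4.1) by 0.15 ± 0.05 (adjusted p = 0.0316), and Dmtn and Slc25a37, the mitochondrial iron importer, fell by 0.23 each. The Epb41 call was lost without saline replicate 1, 2 or 3 or LPS replicate 2 or 3 labelled Lcn2-/-. After LPS, Gypc was also higher under the Lcn2-/- label than in wild type (0.82 ± 0.17, adjusted p = 0.00519), the 1 of 13 called there, and this call held in each of the 16 fits that left out 1 library but not with the globin level as a covariate (adjusted p = 0.078). Of the list's uncalled genes, the one with the highest level was Mkrn1 in wild type (0.01 ± 0.03, adjusted p = 0.795) and Bnip3l under the Lcn2-/- label (-0.05 ± 0.03, adjusted p = 0.183). The list's median log2 change was -0.05 in wild type and 0.03 under the Lcn2-/- label, beside -0.02 and -0.03 over all genes tested.

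Of the globin genes outside the 5 members, 6 of 9 listed were in the table and 3 passed the filter. Cygb (cytoglobin) lay between 20.6 and 24.8 RPKM, above all members in every library, and Ngb (neuroglobin) between 3.65 and 6.44 RPKM. Cygb rose after LPS in libraries labelled Lcn2-/- (log2 change 0.12 ± 0.04, adjusted p = 0.0314), a call lost without saline replicate 1, 3 or 4 or LPS replicate 2, 3 or 4 labelled Lcn2-/-, and had an estimate of 0.02 ± 0.04 in wild type (adjusted p = 0.782), and Ngb had -0.09 ± 0.12 in libraries labelled Lcn2-/- (adjusted p = 0.574). Embryonic Hbb-y was at 0.173 RPKM or less.

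All 16 heme synthesis genes other than Alas2 passed the filter. In wild type, 1 of 16 rose and 2 fell after LPS, fewer than the 25.3% called over all genes tested: Alas1, the housekeeping form of the Alas2 enzyme, rose (log2 change 0.16 ± 0.05, adjusted p = 0.0284), and Slc25a39 (-0.22 ± 0.08, adjusted p = 0.0481) and Slc25a37 (-0.13 ± 0.04, adjusted p = 0.0232), both mitochondrial carriers, fell. These calls rested on single libraries. The Slc25a39 call was lost in 13 of 16 fits that left out 1 library, all but those without saline replicates 2, 3 and 4 labelled Lcn2-/-, with adjusted p up to 0.646 over the alternatives. Alas1 lost its call without wild type saline replicate 2, 3 or 4 or wild type LPS replicate 1, 2 or 4, and Slc25a37 without wild type saline replicate 2 or 4 or wild type LPS replicate 1 or 3. In libraries labelled Lcn2-/-, 2 rose, among them Slc25a28 (0.27 ± 0.06, adjusted p = 0.00209), and 5 fell, among them Cpox (-0.46 ± 0.07, adjusted p = 9.57e-05) and Fech, whose enzyme inserts iron to form heme (-0.23 ± 0.06, adjusted p = 0.00522). The 7 of 16 called there stand beside 48.3% of all genes tested. The list's median was -0.04 in wild type and 0.01 under the Lcn2-/- label. After LPS, Cpox (-0.38 ± 0.07, adjusted p = 0.00322) and Fech (-0.19 ± 0.06, adjusted p = 0.0409) were lower in libraries labelled Lcn2-/- than in wild type. The Fech call was lost in 9 of 16 fits that left out 1 library: wild type saline replicate 2 or 4, saline replicate 1 labelled Lcn2-/-, wild type LPS replicate 1, 2 or 3, and LPS replicate 1, 3 or 4 labelled Lcn2-/- (adjusted p up to 0.391 over the alternatives).

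Some genes that bind, move and break down hemoglobin and heme passed the test with larger estimates than the hemoglobins. Hp, which encodes haptoglobin, the plasma protein that captures free hemoglobin, rose after LPS in wild type (log2 change 2.40 ± 0.43, adjusted p = 0.000575) and under the Lcn2-/- label (2.59 ± 0.43, adjusted p = 0.000156). Hmox1, the inducible heme oxygenase, rose in wild type (1.19 ± 0.10, adjusted p = 2.16e-07) and under the Lcn2-/- label (2.15 ± 0.10, adjusted p = 1.02e-10). The iron exporter Slc40a1 (ferroportin) fell in both, by 2.41 ± 0.22 (adjusted p = 4.58e-07) and by 3.32 ± 0.22 (adjusted p = 6.35e-09), as did Flvcr2, by 1.34 ± 0.20 (adjusted p = 8.75e-05) and by 2.16 ± 0.20 (adjusted p = 3.14e-07). Some of these levels were low. Hp lay between 0.0910 and 0.349 RPKM after saline and between 0.596 and 1.44 after LPS. Over the 16 libraries Slc40a1 ranged from 0.0875 to 1.61 RPKM, Flvcr2 from 0.108 to 0.826 and Hmox1 from 1.41 to 7.72. Of the 12 members tested, 2 rose and 4 fell in wild type, and 3 rose and 4 fell in libraries labelled Lcn2-/-, with medians of -0.03 and -0.01. Over all genes tested 25.3% and 48.3% were called. Ferritin heavy chain Fth1, the uncalled gene with the highest level, had estimates of -0.03 ± 0.05 in wild type (adjusted p = 0.682) and 0.01 ± 0.05 in libraries labelled Lcn2-/- (adjusted p = 0.876). In the normalized values Fth1 was 686.7 RPKM in every wild type saline library, and 686.7 was also its highest value in each other group. With values repeated at 1 level, estimates near 0 do not show that Fth1 was unchanged. After LPS, Hmox1 was higher in libraries labelled Lcn2-/- than in wild type (0.90 ± 0.10, adjusted p = 5.05e-05) and Slc40a1 lower (-1.21 ± 0.22, adjusted p = 0.00209).

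Markers of other blood cells were set beside the hemoglobins. For the counts that follow, the shares of all genes tested were 11.4% called as higher and 13.9% as lower in wild type, and 20.7% and 27.7% under the Lcn2-/- label. Of 17 neutrophil markers 7 passed the filter, and 4 rose and 1 fell after LPS in each genotype; their summed RPKM went from 4.89 to 11.0 after saline to 13.2 to 19.8 after LPS in wild type, and from 7.03 to 9.32 to 13.5 to 30.9 in libraries labelled Lcn2-/-. S100a8, a calprotectin subunit, rose by 2.03 ± 0.46 in wild type (adjusted p = 0.0037) and by 1.98 ± 0.46 under the Lcn2-/- label (adjusted p = 0.00239), and Il1r2, the decoy interleukin-1 receptor, by 2.48 ± 0.25 (adjusted p = 1.39e-06) and 1.90 ± 0.25 (adjusted p = 1.53e-05). The marker that fell was Csf3r, with log2 changes of -0.57 ± 0.14 in wild type (adjusted p = 0.00749) and -0.98 ± 0.14 under the label (adjusted p = 5.18e-05). The listed markers Ly6g, Elane and Mpo were at 0.115, 0.107 and 0.188 RPKM or less in every library. Of 14 platelet markers 6 passed; 2 fell and 0 rose in wild type, and 2 rose and 1 fell in libraries labelled Lcn2-/-. Among defining platelet markers, Pf4 (platelet factor 4) lay between 0.889 and 2.97 RPKM and Itga2b (integrin alpha IIb) between 0.350 and 0.776. Ppbp was at 0.128 RPKM or less and Clec1b at 0.0597 or less. On the same list, Gp1bb (96.6 to 124 RPKM) and Gng11 (7.09 to 20.35 RPKM) lay above every globin gene. The log2 changes in wild type were -1.60 ± 0.56 for Gp9 (adjusted p = 0.046) and -1.28 ± 0.12 for Gng11 (adjusted p = 4.33e-07). The Gp9 call was lost in 11 of 16 fits that left out 1 library. Under the label they were 0.91 ± 0.14 for Itga2b, 0.83 ± 0.32 for Gp5 and -0.86 ± 0.12 for Gng11. Of 12 blood monocyte markers 6 passed, and 4 rose and 1 fell in wild type and 2 rose and 2 fell in libraries labelled Lcn2-/-. Ms4a4c rose by 3.46 ± 0.25 in wild type (adjusted p = 2.83e-08) and 4.37 ± 0.25 under the label (adjusted p = 1.02e-09). Nr4a1 fell, with log2 changes of -1.33 ± 0.14 in wild type (adjusted p = 1.62e-06) and -1.60 ± 0.14 under the label (adjusted p = 1.29e-07). Of 12 B cell markers 3 passed (0 rose and 1 fell in wild type, 1 rose and 1 fell in libraries labelled Lcn2-/-), and of 16 T and NK cell markers 5 passed (1 rose and 1 fell, and 1 rose and 2 fell). Several of these genes are also expressed or induced in brain cells, and the part of blood cells in the changes was not tested.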

How the data were processed

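RNA from 16 hemi-brains was measured, 4 libraries per combination of genotype label and injection. Per the labels' protocols, tissue was sonicated, RNA was column-purified with DNase I, and sequencing libraries were made by Illumina's standard methods. Not given in the sources used here were the aligner, the annotation and the counting tool. Build mm10 was used, per the submitters' processing notes. Values were deposited as log2 RPKM that the authors had normalized by conditional quantiles (CQN), without counts, so depth is unknown; 0 columns of the table were left unused.

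Genes with a log2 RPKM of at least -1 in at least 3 samples (17349) were fitted with a group-means model in limma 3.58.1 (R 4.3.3; empirical Bayes with a mean trend, two-sided, Benjamini-Hochberg over all genes tested, called at an adjusted p under 0.05); 15940 genes were removed. Every adjusted p of a gene comes from limma. The fit was tested on simulated data. The slope on the globin level used the same model with that level as a covariate. Ratios were compared by exact permutation within strata, and co-variation by 100000 permutations, with Benjamini-Hochberg adjustment over 8 tests and 10 pairs (Python 3.11.15, scipy 1.17.1). Symbols came from a table of gene IDs and names that matched 98.2% of the IDs, and sequences from GENCODE vM21 and RefSeq (GRCm38.p6), where all 5 members matched the promoter table.

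The members and gene lists were chosen with earlier results of these data known. Named genes were the members, Lcn2, up to 3 called genes in each direction and the uncalled gene with the highest mean from each list, and the 5 genes most like the globin level by each of 3 measures; not all of them are printed, and defining markers at low levels were named in addition. Alternatives were log2(RPKM + 0.5), no filter, equal medians, GC and length trends removed, array weights, only the contrast's groups, the globin level as a covariate, each library left out and, chosen after seeing the data, the short-minus-long covariate.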

Additional observations from a re-analysis of the deposited data

Results flagged for a closer look

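In wild type LPS replicate 1, Hbb-bt had a log2 RPKM of -1.12, far from the 0.05 to 0.12 of the other 3 libraries of its group. It was 1 of 40 groups of 4 libraries examined in which a value stood apart in this way, where chance alone sets apart about 1 in 20.

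The LPS effect differed between the genotype labels, by the interaction term of limma, for 8 of 70 genes tested from the blood and heme lists. This is 11.4%, near the 8.82% called over all genes tested. The LPS effect in libraries labelled Lcn2-/- minus that in wild type, on the log2 scale, was 1.13 ± 0.24 for Gypc (adjusted p = 0.0136), 0.96 ± 0.14 for Hmox1 (adjusted p = 0.00191), 0.34 ± 0.08 for Blvra, biliverdin reductase A (adjusted p = 0.0235), and -0.42 ± 0.10 for Cpox (adjusted p = 0.0218). Among leukocyte markers it was 1.63 ± 0.44 for Plac8 (adjusted p = 0.0346), -0.74 ± 0.22 for F13a1 (adjusted p = 0.0491), -0.54 ± 0.15 for Ace (adjusted p = 0.0349) and -0.43 ± 0.13 for Cd4 (adjusted p = 0.0446). Several of these calls were lost when 1 library was left out. F13a1 lost its call in 13 of 16 such fits (all but those without saline replicate 4 or LPS replicate 1 labelled Lcn2-/- or wild type LPS replicate 4) and Cd4 in 12 (all but those same 3 and saline replicate 1 labelled Lcn2-/-). Ace lost it in 9 (wild type saline replicates 2, 3 and 4, wild type LPS replicates 1 and 4, and all 4 LPS libraries labelled Lcn2-/-). Plac8 lost it in 8 (wild type saline replicates 1 and 4, saline replicate 1 labelled Lcn2-/-, wild type LPS replicates 2 and 3, and LPS replicates 2, 3 and 4 labelled Lcn2-/-). Blvra lost it in 3 (wild type saline replicate 3, wild type LPS replicate 1 and LPS replicate 3 labelled Lcn2-/-) and Cpox in 1 (wild type saline replicate 3). Over all alternatives the adjusted p reached 0.113 for F13a1, 0.35 for Cd4, 0.248 for Ace, 0.237 for Plac8, 0.335 for Blvra, 0.363 for Cpox, 0.23 for Gypc and 0.0336 for Hmox1.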

How the results depend on the processing

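The low level of the members and the missing counts set the limits: Alas2 lay under the filter, both Hba-a1 calls were near the threshold, and how reads of near copies were assigned was not tested. Of 3418 values under alternatives, 3013 kept their direction and their side of the threshold (or moved within the spread), 264 lost the threshold, 36 passed it, 73 moved and 32 reversed; the causes were not tested. No paired analysis was possible because the labels carry no replicate numbers. The replicate numbers used here follow sample order within each group and do not link libraries between groups.

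Members called for LPS in wild type (1) numbered 2 with log2(RPKM + 0.5), 3 without the filter, 3 with array weights and 2 with only the contrast's groups, and 0 to 4 when 1 library was left out. For the label after LPS (1) they numbered 0 with log2(RPKM + 0.5), 0 without the filter, 3 with array weights and 2 with only the contrast's groups. With the short-minus-long covariate they numbered 4 (1 slope for all libraries, although the relation was not seen after LPS). When 1 library was left out they numbered 0 to 2. For the interaction (0) they numbered 2 with array weights and 0 to 2 when 1 library was left out; genes called on the globin slope (0) numbered 0 to 4. For LPS in libraries labelled Lcn2-/- and the label after saline 0 members were called under every alternative that gave a count.

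The fit without the filter takes in the low end of the table, where the lower quartile was lower in the LPS than in the saline libraries. How far this low end made up the larger unfiltered counts for LPS was not tested. Genes called in all, without the filter, numbered 13790 against 4389 for LPS in wild type, 17808 against 8386 in libraries labelled Lcn2-/-, 3 against 8 for the label after saline and 905 against 1530 for the interaction. With array weights they numbered 34 for the label after saline, 5295 against 2739 after LPS and 3030 for the interaction. With only the contrast's groups they numbered 3 for the label after saline and 4393 after LPS. With the globin level as a covariate they numbered 3 after saline, 1064 after LPS and 143 for the interaction, and with the short-minus-long covariate 4 after saline. Leaving out 1 library gave 3 to 13 genes for the label after saline, 1532 to 5174 after LPS and 727 to 2267 for the interaction.

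Values that reversed all had adjusted p above 0.05 there. Under the short-minus-long covariate, the label after saline was 0.113 for Hba-a1, 0.168 for Hbb-bs and 0.157 for Hbb-bt, and the label after LPS was 0.000345 for Fth1. When 1 library was left out, LPS in libraries labelled Lcn2-/- ran from -0.0383 to 0.521 for Hba-a2 and from -0.00815 to 0.545 for Hbb-bt (lowest without saline replicate 4), from -0.18 to 0.0665 for Ngb, from -0.164 to 0.00178 for Slc25a39 and from -0.0472 to 0.0353 for Fth1. LPS in wild type ran from -0.00526 to 0.0316 for Mkrn1, and the label after LPS from -0.0154 to 0.0301 for Cygb and from -0.0305 to 0.0108 for Fth1. With GC and length trends removed, Mkrn1 was -0.0298 in wild type, Fth1 -0.0935 under the Lcn2-/- label and Cygb -0.0326 for the label after LPS. Fth1 under the Lcn2-/- label was -0.0392 with array weights and -0.013 with the globin covariate, with which Fth1 was 0.0299 in wild type and Cygb -0.0621 for the label after LPS. Ratios between labels ran from -0.111 to 0.000303 for Hba minus Hbb, from -0.215 to 0.0874 for Hbb-bs minus Hbb-bt and from -0.176 to 0.0161 for Alas2 minus the globins; for LPS they ran from -0.149 to 0.0732 for Hba-a1 minus Hba-a2 and from -0.0164 to 0.176 for Alas2 minus the globins.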
